A study of Mus musculus with 192 samples.

Results

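The replication-dependent histone genes lie in clusters and encode the histones that package newly copied DNA: H2A, H2B, H3 and H4, which form the core of the nucleosome, and the linker histone H1. Their transcripts are made mainly while DNA is replicated. Unlike other messenger RNAs they normally end in a stem-loop, bound by the protein SLBP, in place of a poly(A) tail. A method that primes on poly(A) therefore captures such transcripts incompletely, or from a run of A within them, while a few cluster genes are known to make polyadenylated transcripts as well. The data came from 192 bone marrow cells of C57BL/6 mice aged 8 to 16 weeks, sorted 1 per well as LSK cells, a population of stem and progenitor cells that lack lineage markers and carry Sca-1 and cKit. They were sequenced in 2 library pools of 96 cells by an adapted CEL-seq2 method, which tags the 3′ end of each captured molecule with a molecular identifier (UMI). All cells share strain and tissue, received no treatment that the labels name, and differ by the sorter signals recorded for each. Since no animal is named, the cells were treated as 1 biological sample: no test was possible, no p-value is given, and every 95% interval covers counting error only.

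Members were the genes whose GENCODE M21 symbol starts with Hist1h, Hist2h, Hist3h or Hist4h. That rule gave 61 of the 20764 genes counted, from 70 such symbols in the annotation. There were 5 members of class H1, 18 of H2A, 15 of H2B, 11 of H3 and 12 of H4. The Hist1h genes on chromosome 13 numbered 52, the Hist2h cluster on chromosome 3 held 6, the Hist3h genes on chromosome 11 numbered 2, and the single Hist4h gene lay on chromosome 6. Hist1h2al, at chr13:51202727-51203065, lay far from the other Hist1h genes. It is annotated as a processed pseudogene, and Hist1h2aj as an unprocessed pseudogene; both were counted in H2A. The other 9 symbols were not analysed here. Of the 192 cells, 191 were kept; the cell left out had 708 gene UMIs and no member UMI. Gene UMIs in the kept cells came to 3704842 in all and ranged from 3927 to 49372 per cell (median 17715), and the same 96 cell indices served both pools. LSK markers fitted the label: Kit had a UMI in 188 of the 191 cells, Mecom in 97, Ly6a, which encodes Sca-1, in 72 and Procr in 46.

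Histone cluster transcripts were a small part of the RNA counted, and most were H2A. The 61 members held 7927 UMIs in the kept cells, which was 0.214% of the gene UMIs or 2140 per 1000000 (CPM). H2A held 7088 of these UMIs (89.4%), H2B 359, H1 231, H4 130 and H3 119. Every member had at least 1 UMI, 24 members had at least 20 and 11 had at least 100. UMIs count captured 3′ ends, so they were not divided by transcript length.

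Among the H2A members, Hist1h2ao (ENSMUSG00000094248, chr13:21810465-21810944, plus strand, GRCm38) had 2040 UMIs in 134 cells and Hist1h2ap had 1556 in 115 cells. Hist1h2ad had 905 UMIs, Hist1h2ai 866 and Hist1h2ab 848. Another 4 H2A members passed 100 UMIs, of which Hist1h2ag with 204 was the highest and Hist1h2ac with 137 the lowest, with Hist1h2af and Hist1h2ae between them. Only 2 members of the other classes did so. Hist1h2bc, an H2B gene known to make polyadenylated transcripts, had 198 UMIs in 56 cells, and Hist1h1c, an H1 gene known for the same, had 107 in 51 cells. The leading members of the remaining classes were Hist1h4i with 59 UMIs for H4 and Hist1h3f with 21 for H3.

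**Figure D1:**
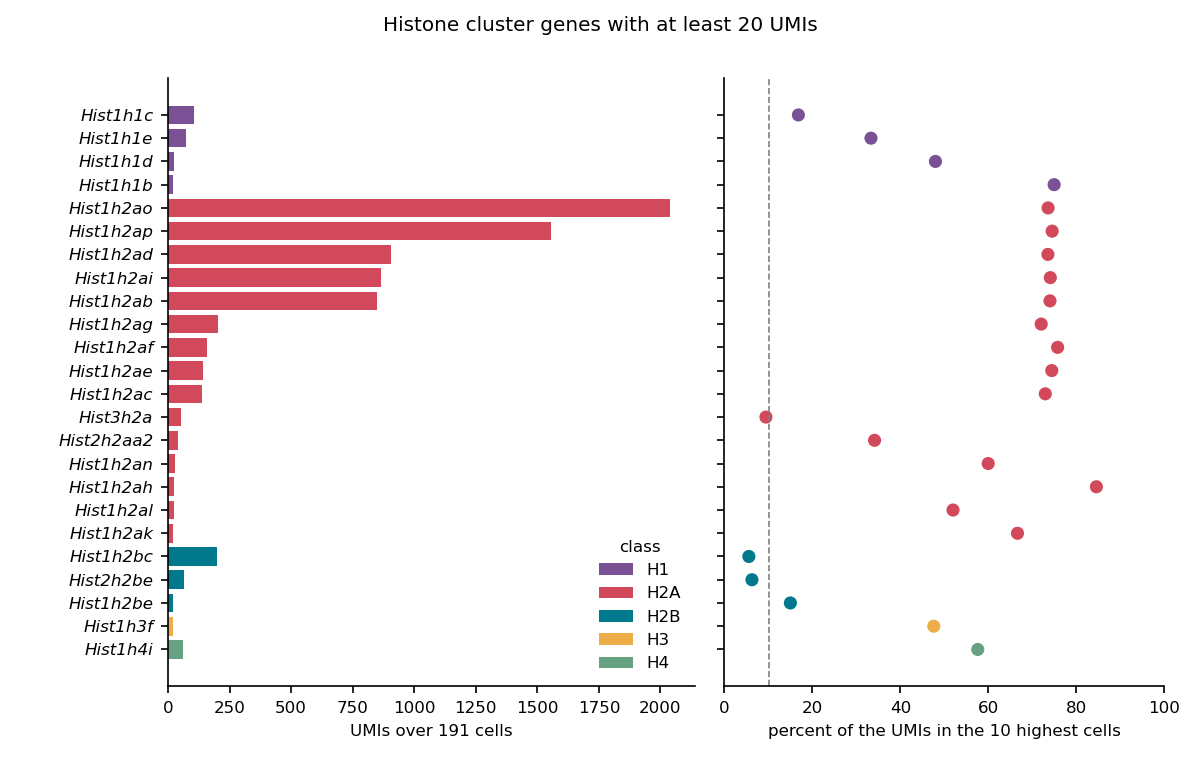
UMIs over the 191 kept cells (left) and the percentage of those UMIs found in the 10 cells with the highest histone CPM (right) for the 24 members with at least 20 UMIs, coloured by class. The dashed line marks the 10.2% of all gene UMIs that these 10 cells held; most H2A members lie near 74%, while Hist1h2bc, Hist2h2be and Hist3h2a lie below 10%.

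Several H2A rows carried the same signal. The coding sequences of the 9 H2A members with at least 100 UMIs, each 393 bases long, were 97.2% to 100% identical, and those of Hist1h2ao and Hist1h2ap did not differ at any base. Of the 98 cells with a UMI of either, 87.8% had counts of Hist1h2ad and Hist1h2ai no more than 1 UMI apart, with a Pearson correlation of 0.999 over cells. Hist1h2ad and Hist1h2ab were so in 86.5% of 96 cells, and Hist1h2ai and Hist1h2ab in 87.2% of 94. These 3 rows, in different places of the Hist1h cluster, were near-identical by the rule used (within 1 UMI in at least 80% of cells). The rule is easily met at low counts and also joined 12 rows of 5 classes, of which Hist1h1e had most UMIs (72). Among these, Hist2h2be and Hist1h2be met it in 81.4% of 59 cells with a Pearson correlation of -0.01. That group is not read as a shared signal. Hist1h2ao and Hist1h2ap correlated at 0.990 but were within 1 UMI in only 71.9% of 135 cells. How reads that match several genes were counted is not given in the sources used here, so whether 1 molecule entered more than 1 row cannot be told, and the class sums are the safer values.

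Most members share a sequence feature after the stop codon that the choice of members did not use. A perfect stem-loop of 16 bases, made of a stem of 6 bases that begins with GG, a loop of 4 bases and the paired strand, was searched for after the stop codon in the GENCODE M21 transcripts. It was present in 38 of the 46 members with at least 30 annotated bases after the stop codon, 21 to 58 bases downstream of it. In the first 100 bases after the stop codon of 19890 other protein-coding genes it was found in 3 (0.0151%): H2afx, which encodes the variant H2AX and is known to make both transcript forms, H2bfm and Ttc14. There were 6 different stem-loops among the members, and the most common one was shared by 22. Not all annotated transcripts end near it. In 15 of the 38 members they run over 200 bases past the stem-loop, and these 15 held 552 UMIs. Hist1h2bc and Hist2h2be, an H2B gene also known for polyadenylated transcripts, had no stem-loop in their annotated transcripts.

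The sites below show the 12 bases before the stem-loop in lower case and the stem-loop in capitals, as DNA on the strand of the gene. They were chosen to set the 2 rows with most UMIs beside members with fewer UMIs and beside the leading members of H1, H3 and H4.
Hist1h2ao (chr13:21810886-21810913): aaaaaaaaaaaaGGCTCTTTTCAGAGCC
Hist1h2ap (chr13:21833029-21833056): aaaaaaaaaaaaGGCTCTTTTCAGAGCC
Hist1h2ae (chr13:23570668-23570695): aaaaaaaacaaaGGCTCTTTTCAGAGCC
Hist1h2ad (chr13:23574883-23574910): tataaaaacaaaGGCTCTTTTCAGAGCC
Hist1h2ab (chr13:23751560-23751587): aaccaaaacaaaGGCTCTTTTCAGAGCC
Hist1h2ag (chr13:22042483-22042510): atcgccaacaaaGGCTCTTTTCAGAGCC
Hist1h1c (chr13:23739500-23739527): aacaatccaaaaGGCTCTTTTCAGAGCC
Hist1h3f (chr13:23544920-23544947): gtaaaccaaaacGGCTCTTTTAAGAGCC
Hist1h4i (chr13:22040966-22040993): atgctacttaaaGGCCCTTTTTAGGGCC

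All 12 bases before the stem-loop were A in Hist1h2ao and Hist1h2ap, the members with most UMIs, and in no other of the 38 members with a stem-loop. Members without a stem-loop in their annotated transcript could not be scored and are left out of the correlations below. They include Hist1h2ai and Hist1h2af, which have almost no annotated bases after the stop codon. Hist1h2ae had 11, Hist1h2ad and Hist1h2ab had 9, and the median over the 38 members was 6.5, down to 3. In the same 100-base window, 91 of the 19890 other genes (0.458%) had 12 A in a row. Over the 38 members the number of A and the UMIs had a Spearman correlation of 0.45. It was 0.71 over the 10 H2A members among them and 0.15 over the 28 members of other classes, none of which had more than 8. Hist1h2ae, with 11 A and 141 UMIs, lay well off that order. Only the 12 bases next to the stem-loop were scored. Hist1h2ac, with 137 UMIs, has a run of 15 A elsewhere in its annotated transcript, which the score leaves out. These values describe members that share sequence and possibly reads, and where priming took place was not tested.

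**Figure D2:**
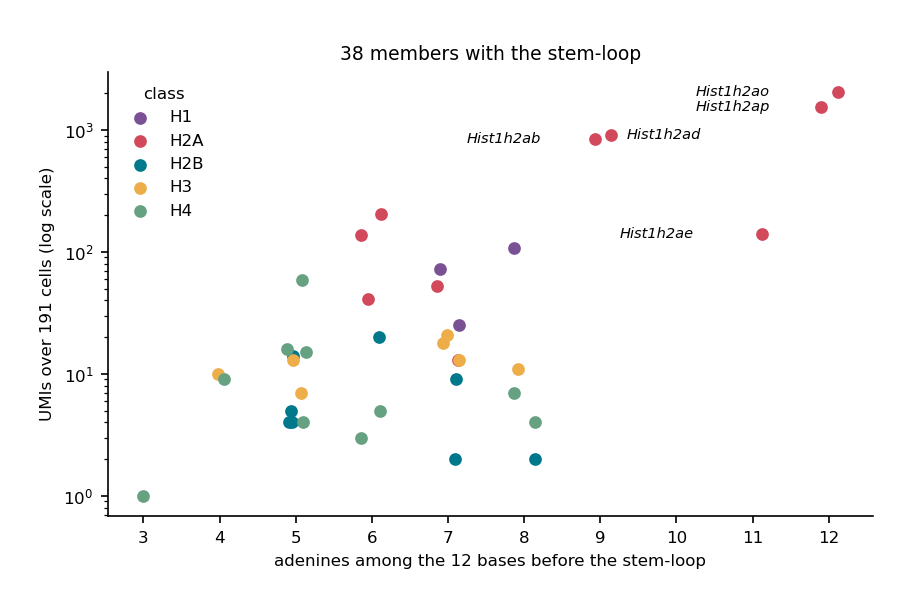
Number of adenines among the 12 bases before the stem-loop (horizontal, with a small sideways spread to separate points) against UMIs over the 191 kept cells (vertical, log scale) for the 38 members with a stem-loop, coloured by class. Hist1h2ao and Hist1h2ap, with 12, have the most UMIs, and members of H1, H2B, H3 and H4 have 8 or fewer.

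Many H2A and H2B genes of these clusters share a promoter region and are transcribed away from each other. Of the members, 11 H2A genes had an H2B member on the opposite strand within 500 bases, and in 9 of these pairs H2A had more UMIs. Hist1h2ao had 2040 UMIs against 12 for Hist1h2bq, Hist1h2ap 1556 against 8 for Hist1h2br, and Hist1h2ad 905 against 5 for Hist1h2bf. The other 2 pairs held the H2B genes known for polyadenylated transcripts. Hist1h2ac had 137 UMIs against 198 for Hist1h2bc, and Hist2h2ac had 13 against 64 for Hist2h2be.

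RefSeq promoters (GRCm38.p6, from 250 bases before to 50 after the start) were matched for 55 members and searched on both strands for CCAAT, the letters of the CCAAT box, for TATAAA, the letters of a TATA box, and for the octamer ATTTGCAT known from H2B promoters. CCAAT was present in all 43 matched promoters of H1, H2A, H2B and H3, but in 3 of 12 of H4, against 37.4% of 32851 promoters of all genes. TATAAA was present in 33 of the 55 (60%), against 13.6%. The octamer was present in 10, of which 6 belonged to H2A and 4 to H2B, against 1.74%. Windows of divergent partners overlap, as those of Hist1h2ae (chr13:23571171-23571470) and Hist1h2bg (chr13:23571150-23571449) do, and both were among the 10. A site in a shared stretch was counted for both genes, so these counts are not of separate sites. The 3 promoters that follow, with matches to any of these motifs in capitals, are those of the H2A member with most UMIs, of the H2A partner of Hist1h2bc and of the leading H4 member. The first 55 bases of the Hist1h2ao window are the reverse complement of the start of the Hist1h2bq coding sequence.
Hist1h2ao (chr13:21810117-21810416, plus strand): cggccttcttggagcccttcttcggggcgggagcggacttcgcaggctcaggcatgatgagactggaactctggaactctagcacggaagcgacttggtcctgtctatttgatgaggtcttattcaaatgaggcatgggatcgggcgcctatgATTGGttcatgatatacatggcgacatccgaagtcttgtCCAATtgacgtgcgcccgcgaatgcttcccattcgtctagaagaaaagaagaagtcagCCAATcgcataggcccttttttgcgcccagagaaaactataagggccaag
Hist1h2ac (chr13:23683910-23684209, minus strand): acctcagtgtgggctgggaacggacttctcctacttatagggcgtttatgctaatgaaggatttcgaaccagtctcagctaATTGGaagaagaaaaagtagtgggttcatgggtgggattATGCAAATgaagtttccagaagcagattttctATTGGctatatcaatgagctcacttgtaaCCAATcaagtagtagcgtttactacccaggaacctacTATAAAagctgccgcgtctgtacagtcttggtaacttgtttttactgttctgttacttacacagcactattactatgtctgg
Hist1h4i (chr13:22041313-22041612, minus strand): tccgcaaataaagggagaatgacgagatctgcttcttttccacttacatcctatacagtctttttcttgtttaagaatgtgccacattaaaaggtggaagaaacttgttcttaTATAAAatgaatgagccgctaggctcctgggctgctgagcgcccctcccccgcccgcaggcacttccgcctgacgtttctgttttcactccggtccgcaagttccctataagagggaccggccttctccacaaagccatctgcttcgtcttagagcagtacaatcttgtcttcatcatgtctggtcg

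Hist1h2ao held 3 copies of CCAAT, Hist1h2ac held 3 with 1 TATAAA and 1 octamer, and Hist1h4i held 1 TATAAA and no CCAAT. A match is a run of letters and says nothing of binding in these cells, which was not measured.

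Over cells the histone transcripts were very unevenly spread. A set of 10 cells held 5432 of the 7927 member UMIs (68.5%) and 10.2% of all gene UMIs. They stood at 10798 to 20071 CPM, and the next cell at 5405. The other 181 cells had a median of 352 CPM, and 17 of them had no member UMI. These 10 cells were picked by this value, so their level is a description. They had more UMIs of all genes as well, a median of 37475 (29137 to 49372) against 17305 in the other cells. Pool 1 held 7 of them and pool 2 held 3. The pools differed in their summed level, 2578 CPM in pool 1 and 1660 in pool 2, while the median cell stood at 350.2 in pool 1 and 391 in pool 2.

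The share of UMIs held by the 10 cells differed between the classes. The 10 cells held 73% of the H2A UMIs, 56.3% of H3, 53.8% of H4, 31.6% of H1 and 12.5% of H2B. H2A stood at 13678 CPM in the 10 cells and 575 in the other 181, a log2 ratio of 4.57. H2B stood at 119 CPM in the 10 cells and 94.4 in the others (log2 0.33), and H1 at 193 in the 10 cells and 47.5 in the others (log2 2.02). Of the members with at least 20 UMIs, 15 of 24 had over 50% of their UMIs in these cells. Over all genes 91 of 11250 (0.809%) did so, but the cells were picked by the sum of the members, which fixes a high share for those with most UMIs, and nothing is read from the contrast. Hist1h2ah had the highest share with 84.6%, from 26 UMIs. The lowest shares were those of Hist1h2bc (5.56%), Hist2h2be (6.25%) and Hist3h2a (9.43%), all at or under the 10.2% of gene UMIs in these cells. In the 10 cells H2A made up 95.3% of member UMIs, against 76.6% in the others. H2A was 89.4% of the total by which the cells were picked. Its high share and ratio there follow largely from that choice, and nothing is read from its contrast with the other classes.

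Hist1h2ao had 103 to 226 UMIs in the 10 cells, with a median of 147.5, against 0 to 31 with a median of 1 in the other 181. In order of falling histone CPM, the 10 cells held 0, 0, 1, 0, 2, 0, 0, 7, 1 and 0 UMIs of Hist1h2bc. Every one of these cells had over 100 UMIs of Hist1h2ao, and 6 had none of Hist1h2bc. Hist1h2ao is the largest part of the total by which the cells were picked, so its level there follows from the choice. Hist1h2bc reached 16 UMIs in a cell outside the 10.

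The histone level per cell was set beside Pcna and Mki67. Pcna encodes the sliding clamp of the replication fork, and Mki67 encodes Ki-67, a chromosome coat protein of dividing cells. In the same order of falling histone CPM, the 10 cells held 67, 42, 24, 54, 20, 33, 44, 2, 48 and 5 Pcna UMIs, and 38, 50, 34, 40, 2, 22, 50, 52, 14 and 57 Mki67 UMIs. A pair of the cells had 52 and 57 Mki67 but 2 and 5 Pcna UMIs, and another had 20 Pcna and 2 Mki67 UMIs. The other 7 had at least 24 Pcna and at least 14 Mki67 UMIs. The median was 37.5 Pcna UMIs in the 10 cells and 4 in the other 181, and 39 Mki67 UMIs against 0. The 10 cells held 21% of all Pcna UMIs and 67.2% of all Mki67 UMIs.

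Cells with many Pcna UMIs were found both among the 10 cells and at low histone levels. Of 19 cells with at least 20 Pcna UMIs, 8 were among the 10 cells, and the other 11 stood at 110 to 1574 histone CPM with a median of 325. The median over all kept cells was 373. Of the 20 cells with most Pcna CPM, 6 were among the 10, and the median histone level of the 20 was 512 CPM. Of 10 cells with at least 20 Mki67 UMIs, 8 were among the 10, and the other 2 stood at 1574 and 3051. Over the 191 cells the Spearman correlation with the histone total was 0.04 for Pcna and 0.38 for Mki67. Among the 181 other cells it was -0.06 and 0.25. All points come from 2 libraries and share depth, so these are descriptions.

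The class sums gave the same order. Mki67 correlated at 0.36 with H1, 0.35 with H2A, 0.33 with H3, 0.31 with H4 and 0.25 with H2B. Pcna correlated at between -0.06 (H2B) and 0.11 (H3) with the classes. When every cell was thinned to 12147 gene UMIs, which 172 cells reached, the 21 cells with 3 or more Mki67 UMIs had a median of 52 member UMIs, against 4 in the 131 cells with none. The 109 cells with 3 or more Pcna UMIs had a median of 4, against 5 in the 11 cells with none. Of these 109 cells 8 had at least 100 member UMIs, as did 1 of the 11 and 1 of the 52 cells with 1 or 2 Pcna UMIs. The same cut takes many more cells for Pcna than for Mki67, so the 2 contrasts are not alike.

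**Figure D3:**
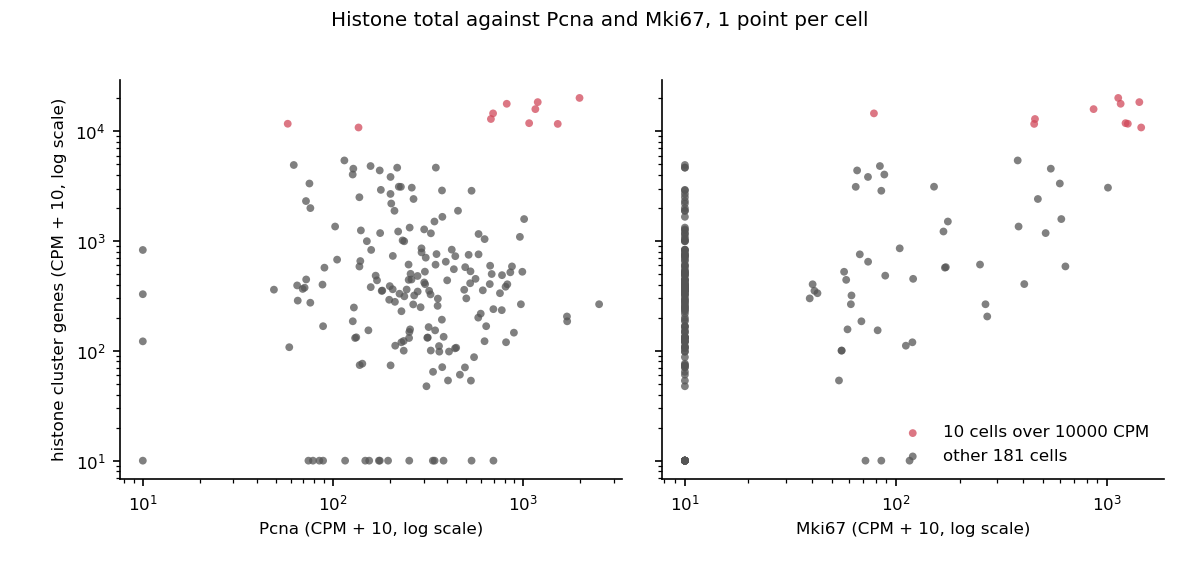
Histone total per cell (vertical, CPM + 10, log scale) against Pcna (left) and Mki67 (right), on the same scale, with 1 point for each of the 191 kept cells. The 10 cells over 10000 CPM are red; 9 of them lie to the right in the Mki67 panel, while the cells with at least 20 Pcna UMIs that are not red stand at 110 to 1574 histone CPM.

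Among 3259 genes outside the members with at least 200 UMIs, the gene most like the histone total over cells was Gm11336, an unprocessed pseudogene in the annotation, with a Spearman correlation of 0.72 and 76.1% of its 564 UMIs in the 10 cells. Mki67 was second at 0.38 and H3f3b, which encodes the replacement histone H3.3, came next at 0.32. Lgals9, Slc3a2, Gm9892, Mrpl34, Btg1, Aimp1 and Hmga1b followed at 0.28 to 0.24.

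Genes of related function were set beside the members as lists. Of 24 mitosis genes all had at least 20 UMIs, and 20 had over 50% of their UMIs in the 10 cells, with a median share of 59.8%. The share was 56.5% for Top2a, the topoisomerase that untangles chromosomes, 51.6% for the mitotic kinase Cdk1 and 14.1% for Bub1b. Of 25 DNA replication genes with at least 20 UMIs, 1 passed 50% (Pclaf, 56.5%), and the median share was 19%. The 6 helicase genes Mcm2 to Mcm7 lay between 11.3% for Mcm2 and 18.7% for Mcm5. Histone mRNA production genes had a median of 11.8%, with 22.9% for Slbp, which encodes the protein that binds the stem-loop, and 11.1% for Npat, an activator of the clusters. Histone chaperones had 16%, with 20.7% for Nasp and 54.5% for Asf1b. Replacement histones, which are made outside S phase as well, had 15.4%. Among them H2afx had 45% and H2afz 28.1%, while H2afy, which encodes macroH2A1, had 6.31%. Over all 11250 genes the median was 9.28%.

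Markers of other cell types were also counted in the 10 cells. B cell markers had 0 to 74 UMIs per cell, with a UMI in 4 of the 10 cells, and erythroid markers had 0 to 48, with a UMI in 3. Within a list the shares differed widely. B cell markers with at least 20 UMIs ran from 29.4% for Cd79b (51 UMIs) to 88.1% for Cd79a (42 UMIs). Erythroid markers with at least 20 UMIs ran from 3.1% for Hbb-bt (64 UMIs) to 68.9% for Klf1 (45 UMIs). The T cell marker list had no UMI in the 10 cells. Macrophage markers had 0 to 10 UMIs per cell, mast cell and basophil markers 0 to 17, megakaryocyte markers 0 to 9 and granulocyte markers 0 to 2. All 10 cells had UMIs of the LSK markers, from 2 to 67 per cell, and the LSK list had a median share of 5.26% in these cells. The part of these markers in the histone level was not tested.

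Forward scatter rises with cell size. Cells of each pool were ranked by each sorter signal, and the 32 lowest, 32 middle and 32 highest of each pool formed its terciles. The histone total stood at 1204 CPM in the lower, 1213 in the middle and 3408 in the upper tercile by forward scatter. The upper tercile held 8 of the 10 cells, the middle tercile 1 and the lower tercile 1. Per cell the total ran from 0 to 10798 CPM with a median of 353 in the lower tercile, from 0 to 14518 with a median of 378 in the middle tercile, and from 0 to 20071 with a median of 382 in the upper tercile. The terciles overlapped over nearly their whole range, and their medians lay close together.

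**Figure D4:**
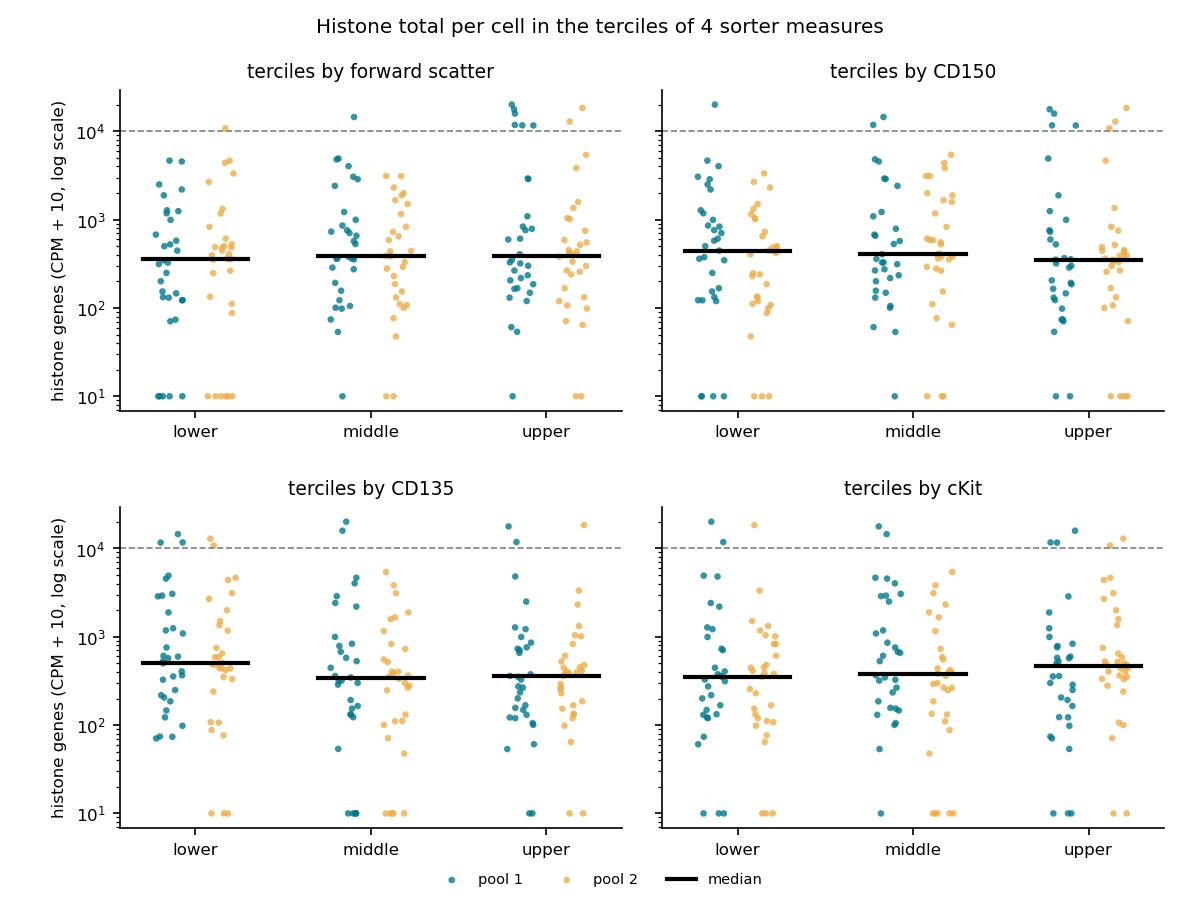
Histone total per cell (vertical, CPM + 10, log scale) in the lower, middle and upper terciles by forward scatter, CD150, CD135 and cKit, with 1 point per kept cell coloured by pool and a black line at the median of each tercile. The dashed line is at 10000 CPM; the medians lie between 331 and 493 CPM, and the upper tercile by forward scatter holds 8 of the 10 cells above the line.

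The summed level was 2.83-fold higher in the upper than in the lower tercile by forward scatter, a log2 ratio of 1.50 (1.41 to 1.59). It was 2.43 in pool 1 and 0.60 in pool 2. With the 10 cells left out, the upper tercile stood at 606 CPM against 799.6 in the lower tercile, and the log2 ratio was -0.40 (-0.55 to -0.25). These cells were picked by the histone total, and 8 of them lay in the upper tercile. Leaving them out lowers the ratio through that choice, so nothing is read from its change of direction. The upper tercile was also deeper, with a median of 22427 gene UMIs per cell against 15330, and with every cell thinned to 1 depth the ratio was 1.35. By spike-in UMIs in place of gene UMIs it was 2.25. B cell markers had 103 UMIs in the upper and 11 in the lower tercile, and erythroid markers 90 in the upper and 42 in the lower. A single cell among the 10 held 74 of the 134 B cell marker UMIs. The B cell sums by forward scatter, CD150 and cKit therefore rest largely on that cell. The 1 granulocyte marker with enough UMIs had a log2 ratio of 4.42. The part of these markers in the difference was not tested.

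The difference lay in H2A and, at a much lower level, in H3. H2A stood at 3183 CPM in the upper and 962 in the lower tercile (log2 1.73, 1.63 to 1.83), and H3 at 56.8 in the upper and 17.4 in the lower (1.71, 0.95 to 2.55). The interval of H4 (0.44, -0.22 to 1.12) and of H1 (0.02, -0.45 to 0.50) spanned 0. H2B went the other way, at 63.1 in the upper and 132 in the lower tercile (-1.06, -1.46 to -0.67). H2B was lower in each pool (-1.52 in pool 1, -0.41 in pool 2) and stood at -1.57 when the 10 cells were left out. Without these cells, which were picked by the total, H2A was at -0.19 and H3 at 0.10.

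**Figure D5:**
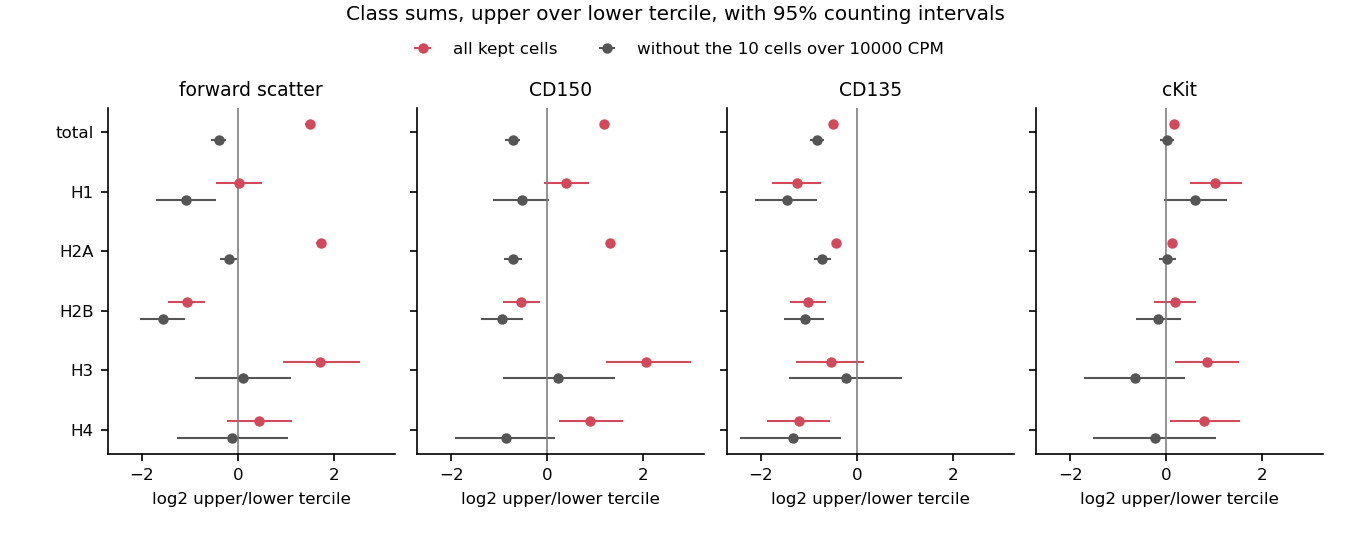
Log2 ratio of the upper over the lower tercile (horizontal) for the histone total and each class, with 95% counting intervals, by forward scatter, CD150, CD135 and cKit. Red points are from all kept cells and grey points from the cells without the 10 over 10000 CPM, which were picked by the total. By forward scatter the total is at 1.50 in red and -0.40 in grey, and H2B is below 0 in both.

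Of the 20 members with at least 20 UMIs over the 2 forward scatter terciles, 11 were at least 2-fold higher in the upper tercile and 3 at least 2-fold lower, against 5.15% and 4.48% of 10304 genes. The median log2 ratio was 1.48 over these members and -0.04 over all genes. All 11 higher members were H2A genes that share sequence. A member could reach 20 UMIs mainly through the 10 cells, 8 of which lay in the upper tercile. Nothing is therefore read from the count or the median beside all genes. Hist1h2ao had 1456 UMIs in the upper and 248 in the lower tercile (log2 1.87, 1.68 to 2.07). It stood at 3.16 in pool 1 and 0.68 in pool 2. Without the 10 cells, picked by a total of which it is the largest part, it stood at -0.06. The 3 lower members were Hist1h2bc, Hist2h2be and Hist3h2a. Hist1h2bc had 49 UMIs in the upper and 73 in the lower tercile (-1.26, -1.81 to -0.72), with -2.50 in pool 1 and 0.24 in pool 2. The ratio of Hist1h1c was -0.91 (-1.60 to -0.22).

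In the terciles by forward scatter Pcna had a log2 ratio of 1.35 (1.15 to 1.55) and Mki67 of 1.33 (1.00 to 1.66), the Mki67 value being 2.65 in pool 1 and 0.31 in pool 2. When the 10 cells were left out, Pcna kept 1.12 (0.91 to 1.33) and Mki67 0.72 (0.16 to 1.30). All 25 DNA replication genes with enough UMIs were at least 2-fold higher in the upper tercile, and 17 of 24 mitosis genes were, against 5.15% of all genes. The median cell had 202 CPM of Pcna in the lower, 219 in the middle and 429 in the upper tercile, whereas the median histone total lay between 353 and 382. Of 10 replacement histone genes 2 were at least 2-fold higher, of 10 histone mRNA production genes 1, which was Slbp at 1.16 (0.78 to 1.55), and of 11 chaperone genes 4, Nasp (1.22) and Hat1 (1.06) among them.

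CD150 is a surface protein carried by long-term stem cells. The histone total stood at 1375 CPM in the lower, 1688 in the middle and 3134 in the upper tercile by CD150, and these held 1, 2 and 7 of the 10 cells. The median cell ran the opposite way, with 432 CPM in the lower, 395 in the middle and 341 in the upper tercile. Single cells reached 20071 CPM in the lower, 14518 in the middle and 18387 in the upper tercile, and each tercile had cells at 0. Median depth was 16065 gene UMIs per cell in the lower, 18194 in the middle and 19396 in the upper tercile.

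The summed log2 ratio by CD150 was 1.19 (1.10 to 1.27), with 0.61 in pool 1 and 2.31 in pool 2. Without the 10 cells it was -0.72 (-0.88 to -0.56), from 474.5 CPM in the upper and 780 in the lower tercile. H3 had 2.06 (1.22 to 3.0), H2A 1.31 (1.21 to 1.40) and H4 0.89 (0.23 to 1.59), while H1 had 0.40 (-0.06 to 0.87) and H2B -0.54 (-0.92 to -0.16). Mki67 had 1.38 and, without the 10 cells, -0.92. The 10 cells were picked by the histone total, held 67.2% of Mki67 UMIs and lay mostly in the upper tercile. Leaving them out lowers the ratios of the total and of Mki67 through that choice, so nothing is read from their joint change of direction. Pcna had 0.58 with these cells and 0.65 without them. At least 2-fold higher in the upper tercile by CD150 were 19 of 24 mitosis genes and 3 of 25 DNA replication genes, against 4.63% of all genes. Erythroid markers had 97 UMIs in the upper and 17 in the lower tercile by CD150, B cell markers 29 in the upper and 90 in the lower, and their part was not tested.

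Of 19 members with enough UMIs by CD150, 10 were at least 2-fold higher in the upper tercile and 2 at least 2-fold lower, against 4.63% and 2.68% of 10323 genes. The median log2 ratio was 1.07 over these members and 0.00 over all genes. Hist1h2ao had 1156 UMIs in the upper and 362 in the lower tercile (1.33, 1.16 to 1.51), and -0.58 without the 10 cells. The 2 lower members were Hist1h2bc at -1.10 (-1.65 to -0.57) and Hist3h2a at -1.57 (-2.88 to -0.38). Hist1h2bc kept -1.13 without the 10 cells and was lower in both pools, with -1.42 in pool 1 and -0.63 in pool 2.

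CD135 is the FLT3 receptor, which marks progenitors that lean to the lymphoid side. The histone total stood at 2616 CPM in the lower, 1921 in the middle and 1857 in the upper tercile by CD135, and these held 5, 2 and 3 of the 10 cells. The median cell had 493 CPM in the lower, 331 in the middle and 346 in the upper tercile. The log2 ratio of upper over lower was -0.49 (-0.57 to -0.42), with -0.37 in pool 1 and -0.65 in pool 2. With the 10 cells left out, it was -0.83 (-0.98 to -0.68). Here alone of the 4 signals, the direction held in both pools and with and without these cells, which were picked by the total. With the 24 highest and 24 lowest cells of each pool, however, the ratio was 0.19. Markers of several other cell types, though not all, were also lower in the upper tercile by CD135. Mast cell and basophil markers had 19 UMIs in the upper and 222 in the lower tercile, and megakaryocyte markers 12 in the upper and 97 in the lower. All 4 erythroid markers with enough UMIs were at least 2-fold lower, with a median log2 ratio of -4.58, and the 1 such granulocyte marker had -4.63. B cell markers had 15 UMIs in the upper and 20 in the lower tercile, and macrophage markers 140 in the upper and 163 in the lower. Of 2 macrophage markers with enough UMIs 1 was at least 2-fold higher, which was Csf1r at 2.04 (0.80 to 3.48). The part of these markers in the histone difference was not tested.

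All 5 classes had a ratio below 0 by CD135. H1 had -1.25 (-1.76 to -0.75), H4 -1.20 (-1.88 to -0.56) and H2B -1.01 (-1.40 to -0.63), each lower by more than H2A at -0.43 (-0.51 to -0.35). The interval of H3 spanned 0 (-0.55, -1.27 to 0.16). H2B stood at 71.6 CPM in the upper and 144 in the lower tercile, and its ratio was close in both pools, with -0.96 in pool 1 and -1.07 in pool 2.

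Of 18 members with enough UMIs by CD135, 1 was at least 2-fold higher in the upper tercile and 4 at least 2-fold lower, against 4.31% and 5.83% of 10266 genes. The member higher was Hist1h2an, with 15 UMIs in the upper and 7 in the lower tercile and an interval that spanned 0 (1.19, -0.19 to 2.72). The 4 lower were the 2 genes with polyadenylated transcripts Hist1h1c and Hist1h2bc, and Hist1h1e and Hist1h4i. Hist1h1c had 16 UMIs in the upper and 67 in the lower tercile (-1.98, -2.86 to -1.17), with -2.22 in pool 1 and -1.67 in pool 2. Hist1h2bc had 30 in the upper and 111 in the lower (-1.80, -2.43 to -1.21), with -1.64 in pool 1 and -2.03 in pool 2. When the 10 cells were left out, both kept -1.81. Per cell, Hist1h2bc ran from 0 to 945 CPM in the lower, 0 to 511 in the middle and 0 to 447.5 in the upper tercile, and was seen in 21, 20 and 15 cells. Most cells of each tercile had none, so these sums rest on a minority of cells. Hist1h1e had -1.06 (-2.08 to -0.10), and Hist1h4i -1.10 (-2.12 to -0.16). The annotated Hist1h1e gene overlaps Hist1h2be by 496 bases on the same strand, and their reads may not be separable.

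For Hist2h2be, another gene known for polyadenylated transcripts, the interval spanned 0. It had 26 UMIs in the upper and 22 in the lower tercile by CD135, a ratio of 0.33 (-0.55 to 1.22). In the CD135 terciles Pcna had -0.20 (-0.37 to -0.02) and Mki67 -0.41 (-0.71 to -0.12), both closer to 0 than H1, H2B and H4. Without the 10 cells Mki67 had -1.47 (-2.10 to -0.87). Of the 24 mitosis genes 1 was at least 2-fold higher and 9 at least 2-fold lower, and of 25 DNA replication genes 1 was lower. Over all genes 4.31% were higher and 5.83% lower by this limit. Of 10 replacement histone genes 3 had a ratio above 0 by CD135 and 7 below it, with a median of -0.39, against 2 above and 16 below among the 18 members. Over all 10266 genes 4567 were above 0 and 5699 below it. H2afy, which has most UMIs of the replacement histone genes, was among those above 0 with 1.46 (1.38 to 1.55), while Cenpa had -1.63 and H1fx -1.66.

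cKit, the receptor for stem cell factor, separated the histone totals least. They stood at 2189 CPM in the lower, 1734 in the middle and 2440 in the upper tercile by cKit, with 3, 2 and 5 of the 10 cells. Median depth was 16051, 17363 and 20481 gene UMIs per cell in the same order. The median cell had 344 CPM in the lower, 365 in the middle and 453 in the upper tercile. The log2 ratio of upper over lower was 0.16 (0.08 to 0.23), and -0.0026 in pool 1 against 0.40 in pool 2. Leaving out the 10 cells gave 0.014. Of the 14 kept cells with a CD127 (interleukin-7 receptor) signal above 2000, 12 lay in the lower cKit tercile, and 3 of these were among the 10 cells, with 1819 member UMIs between them. Without the CD127-high cells the ratio by cKit was 1.92. B cell markers had 24 UMIs in the upper and 94 in the lower tercile by cKit, T cell markers 0 in the upper and 14 in the lower, and megakaryocyte markers 79 in the upper and 23 in the lower. The 1 granulocyte marker with enough UMIs had a log2 ratio of -2.85. The part of these markers in the ratios by cKit was not tested.

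Class H1 had the clearest ratio by cKit, at 74 CPM in the upper and 36.5 in the lower tercile (1.02, 0.49 to 1.58; 0.73 in pool 1 and 1.31 in pool 2). With the 10 cells left out, it was 0.59 (-0.06 to 1.27). H3 had 0.84 (0.19 to 1.53) and H4 0.79 (0.08 to 1.53), but -0.65 and -0.24 without these cells, and H2A had 0.11. Of 19 members with enough UMIs, 1 was at least 2-fold higher in the upper tercile and none at least 2-fold lower, against 4.41% and 3.42% of 10308 genes. That member was Hist1h1c, with 46 UMIs in the upper and 14 in the lower tercile (1.39, 0.50 to 2.37).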

How the data were processed

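Deposited values were counts of UMIs per gene and cell made by the authors, in whole numbers, 1 column per cell. The submitters' processing notes name the build GRCh38, while the gene IDs are those of mouse; the aligner, the counting of reads that match several genes and the UMI rule are, in the sources used here, not given. Cells with at least 20% of their pool's median gene UMIs were kept. UMIs were summed per member, class and tercile and divided by gene UMIs (CPM). Log2 ratios carry exact conditional binomial 95% intervals. These were checked on counts simulated with counting error alone, so the check does not cover the spread between cells. The UMI has 6 bases, or 4096 sequences, so high counts can saturate slightly. Coordinates, symbols and transcripts are from GENCODE M21, promoters from RefSeq. Members with at least 100 UMIs, the 10 genes most alike and list genes with most UMIs were named by rule; other members and list genes are named because they passed the 2-fold limit or stand at an end of a class or list, which was seen in these values. Members and lists were chosen with earlier results of these data known. Members with at least 20 UMIs over the lower and upper terciles were counted, so a member could pass mainly through the 10 cells over 10000 CPM. Python 3.11.15, numpy 2.4.6, pandas 2.3.3 and scipy 1.17.1 were used.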

Additional observations from a re-analysis of the deposited data

How the results depend on the processing

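Log2 ratios of the histone total follow in the order forward scatter, CD150, CD135 and cKit. Without the 10 cells over 10000 CPM, a setting chosen after seeing the data, they were -0.40, -0.72, -0.83 and 0.014, and the Spearman correlation with Mki67 was 0.25. These cells were picked by the total itself, so nothing is read from a change of direction in this setting. In pool 1 alone they were 2.43, 0.61, -0.37 and -0.0026, and in pool 2 alone 0.60, 2.31, -0.65 and 0.40. With 24 cells per pool and end they were 1.69, 1.15, 0.19 and 0.09, and with 48 cells 1.13, 0.85, -0.70 and 0.26. Per spike-in UMI they were 2.25, 1.49, -0.57 and 0.43, thinned 1.35, 0.97, -0.51 and 0.039, and without the cells with CD127 above 2000 1.14, 1.93, -1.38 and 1.92. Without the cell with most member UMIs they were 1.33, 0.97, -0.49 and -0.15, as the mean CPM per cell 1.35, 0.88, -0.56 and 0.21, and with 64 cells per end over both pools 1.38, 1.30, -0.44 and 0.15. Forward scatter gave 1.38 without Hist1h2ao and 1.40 without the 10 cells tied across a border. The cause of these shifts was not tested beyond what each setting leaves out.

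Without the 10 cells, ratios by forward scatter turned to -0.19 for H2A, -0.064 for Hist1h2ao, -0.023 for Hist1h2ap, -0.36 for Hist1h2ad, -0.21 for Hist1h2ai, -0.38 for Hist1h2ab, -0.63 for Hist1h2af and -0.32 for Hist1h2ae. By CD150 they turned to -0.72 for H2A, -0.85 for H4, -0.58 for Hist1h2ao, -0.53 for Hist1h2ap, -0.81 for Hist1h2ad, -0.79 for Hist1h2ai, -0.71 for Hist1h2ab, -1.44 for Hist1h2ag, -1.21 for Hist1h2af, -0.30 for Hist1h2ae and -1.07 for Hist1h2ac, and by cKit to -0.65 for H3 and -0.24 for H4. With 24 cells, ratios by CD135 turned to 0.29 for H2A, 0.29 for Hist1h2ao, 0.47 for Hist1h2ap, 0.16 for Hist1h2ad, 0.12 for Hist1h2ai and 0.045 for Hist1h2ab. By cKit, H2A turned to -0.21 and Hist1h2ao to -0.19 without the cell with most member UMIs, H2A to -0.033 in pool 1 and Hist1h2ao to -0.030 when thinned. Hist1h2bc by forward scatter was 0.24 in pool 2. Counting near-identical rows once was done in 2 ways. The rule over all rows dropped 13 rows, many of them unlike rows with low counts, and the rule within a class dropped 2 H2A rows. Both, median-of-ratios scaling, a correction for UMI collisions and no cell filter left all 4 ratios of the total in direction and close to their values. No paired analysis was possible because the cells form 1 group with no replicate numbers. Depth limits single members most: only 24 of the 61 had at least 20 UMIs.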
